A study of Mus musculus with 6 samples.

Results

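Metallothioneins and the genes that sense and move zinc were examined as a set of 7 genes, Mt1, Mt2, Mtf1, Slc30a1, Slc39a6, Slc39a10 and Slc39a14, taken by symbol from a table of 13595 genes. All 7 were listed and all 7 passed the filter on low values. The table came from poly(A) RNA of primary CD31-positive cells, a selection for an endothelial surface protein, taken from liver of C57BL6/J mice at 4 weeks of age and grown in culture. There were 3 libraries labelled male and 3 labelled female. Every library came from cells given 100 µM indoxyl sulfate, a tryptophan metabolite that activates the aryl hydrocarbon receptor, together with hypoxia and nutrient deprivation for 6 hours, so the contrast is that of labelled sex under treatment and the effect of the treatment itself was not analysed here. What distinguishes replicates 4, 5 and 6 (an animal, a pool or a dish) is not stated, so p-values measure only the spread between these libraries, which may be technical.

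Metallothioneins are small cysteine-rich proteins that bind zinc, copper and cadmium and buffer the free zinc of the cell. When cytosolic zinc rises, the zinc-finger factor MTF1 binds metal response elements and activates the metallothionein genes and the zinc exporter gene Slc30a1. Proteins of the SLC30 family move zinc out of the cytosol, and those of the SLC39 family move it in. Metallothionein genes are also known to respond to glucocorticoids, cytokines of the IL-6 family and oxidants.

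The libraries held between 22303270 and 31189363 reads over the listed genes, and 3 reads corresponded to a normalized read count of 0.106 to 0.142. Xist read 234 to 324 in the libraries labelled female and 0.124 to 0.458 in those labelled male, but the Y-linked genes Ddx3y, Uty, Eif2s3y and Kdm5d were read in every library labelled female, Ddx3y at 48.5 to 57.7 against 47.2 to 76.3 and Uty at 22.2 to 27.7 against 23.7 to 32.0. Eif2s3y, at 29.4 to 30.2 against 55.3 to 61.2, and Kdm5d, at 17.6 to 20.8 against 30.7 to 37.5, were lower there without overlap. Each direction given here therefore rests on the labels. Markers of cell types also differed, and their counts stand beside 69.3% of all 12568 tested genes called at a limma adjusted p under 0.05, 34.6% higher and 34.6% lower. Of 12 endothelial markers 10 were lower and 1 higher in the libraries labelled female, with a median log2 fold change of -1.88. Their normalized read counts summed to 1208 to 1264 against 2301 to 2415. That sum was carried largely by Cdh5 (mean 387 against 924), Emcn (306 against 397) and Eng, the 1 higher (415 against 313). Pecam1, the gene of CD31 itself, was lower by more (73.9 against 407, log2 fold change -2.44), as was Vwf (0.491 against 37.9). The 10 stellate and mural markers summed to 2585 to 3291 against 285 to 429, but they did not move together. Of 8 tested, 4 were higher and 3 lower, beside 34.6% of all genes in each direction, and the sum was carried by the smooth muscle genes Acta2 and Tagln, while Pdgfrb (14.3 against 133), Rgs5 (2.89 against 16.9) and Cspg4 (4.30 against 9.81) were lower. Acta2 read 1513 to 1887 in the libraries labelled female and 134, 56.4 and 45.9 in those labelled male, and Tagln 900.3 to 1179 against 83.6, 40.2 and 32.5, with male 4 the highest male library for both. Of 5 mesothelial markers tested, 4 were higher and 1 lower, beside the same 34.6%. Msln read 299 to 358 against 17.1 to 20.6 and Wt1 11.7 to 13.6 against 0.0829 to 0.114, while Krt19 was lower (mean 116 against 461), and the summed level of all 6 was 464 to 472 against 425 to 519. The 6 cholangiocyte markers, which also include Krt19, summed to 510 to 612 against 1641 to 2489, with 4 of 5 tested lower, beside 34.6% of all genes, and Krt7 higher (mean 9.19 against 1.84). The 8 sinusoidal markers summed to 8.12 to 9.55 against 492 to 531. Lyve1 was nearly all of the sum in the libraries labelled male, at 470 to 513, and read 4.37 to 5.48 in those labelled female. Of the 8 markers, 4 (Stab2, Clec4g, Fcgr2b and Oit3) stayed below 1 in every library. The 8 fibroblast markers summed to 982 to 997 against 2679 to 3401. Of the 8 macrophage markers, 6 were not listed or stayed below 1 in every library. Their sum, 11.97 to 14.4 against 7.30 to 9.49, was nearly all Cd68 and Csf1r. All 5 hepatocyte markers listed stayed below 1 in every library, and the 6 lymphocyte markers were not among the listed genes. The part of these differences in the results below was not tested, and in bulk RNA fewer cells of a type and less RNA per cell cannot be told apart.

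The promoter windows of Mt1, Mt2 and Slc30a1 are shown first because, of the genes with a window, these hold matches to the metal response element, the sequence that MTF1 binds. Windows from RefSeq (GRCm38.p6) were matched by symbol for 5 of the 7 genes, with 2 windows for Slc39a10. Slc39a6 and Slc39a14 had no match. Each sequence gives the 250 bases before the annotated start, all on the plus strand, and capitals mark matches to the core of the metal response element, TGCACNC or TGCGCNC, on either strand. They lie at chr8:94178839-94179088 for Mt1, chr8:94172368-94172617 for Mt2 and chr1:191906531-191906780 for Slc30a1.
Mt1: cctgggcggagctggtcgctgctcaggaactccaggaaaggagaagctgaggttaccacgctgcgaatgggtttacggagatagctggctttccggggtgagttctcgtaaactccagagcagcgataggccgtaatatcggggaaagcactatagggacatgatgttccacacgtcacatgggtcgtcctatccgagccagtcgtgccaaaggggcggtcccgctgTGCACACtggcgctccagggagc
Mt2: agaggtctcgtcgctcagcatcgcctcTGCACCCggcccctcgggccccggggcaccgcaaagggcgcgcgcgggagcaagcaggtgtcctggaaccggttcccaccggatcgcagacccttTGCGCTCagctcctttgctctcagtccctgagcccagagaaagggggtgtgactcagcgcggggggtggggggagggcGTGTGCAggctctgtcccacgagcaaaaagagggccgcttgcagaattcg
Slc30a1: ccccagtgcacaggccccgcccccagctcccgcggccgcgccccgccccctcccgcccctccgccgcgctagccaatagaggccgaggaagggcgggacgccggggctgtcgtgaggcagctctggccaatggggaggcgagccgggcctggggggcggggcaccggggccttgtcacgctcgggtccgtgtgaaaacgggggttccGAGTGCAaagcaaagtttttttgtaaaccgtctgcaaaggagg

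In the full windows, which run to 50 bases after the annotated start, the core matched 3 times in Mt1, 4 times in Mt2 and 2 times in Slc30a1, and not in the windows of Mtf1 and Slc39a10. Of 32817 such windows over the genome, 25.7% held at least 1 match, 1.97% at least 3 and 0.518% at least 4. The annotated starts of both metallothionein genes lie before a TATA box. In the first exon of the GENCODE M21 transcripts Mt1-201 and Mt2-201, the letters TATAAA begin at base 129 and base 90, and the core matched 4 times before the TATA box in Mt1 and 3 times in Mt2. The pair of matches that lies closest to the transcript's start is shown for each gene, in capitals.
Mt1 first exon: cTGCACTCcgcccgaaaagTGCGCTCg
Mt2 first exon: cGTGTGCAggcggcgggggcGCGTGCAt

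Other motifs were searched on both strands of the same windows and of the first exons before the TATA box. The window of Mt1 held the hypoxia response element core ACGTG (19.6% of all windows) 1 time, at 79 to 75 bases before the annotated start, and that of Mt2 did not hold it. The dioxin response element core GCGTG, to which the aryl hydrocarbon receptor binds, matched 1 time in Mt1, 2 times in Mt2 and 1 time in Slc30a1 (32.4% of windows); 1 of the matches in Mt2 overlaps a match to the metal response core. In the first exons it matched 2 times in each metallothionein gene. The antioxidant response element TGACNNNGC (12.4% of windows) matched 1 time in Mt2 and 1 time in Slc30a1. It was not in the window of Mt1, but matched 1 time in the first exon of Mt1, 60 bases before the TATA box. The GC box GGGCGG (35.6%) was found in the windows of Mt1, Mtf1 and Slc30a1 and 1 time in each of the first exons of Mt1 and Mt2, and the STAT site TTCNNNGAA (8.29%) in 1 of the 2 windows of Slc39a10. The E-box CACGTG (7.15%) and the palindromic glucocorticoid element (0.00914%) matched in none of the windows of these 5 genes and in neither first exon. A match is a string of letters and not a site shown to be bound.

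The metallothionein transcripts Mt1 and Mt2 were much lower in the libraries labelled female, while the transcripts of the zinc sensor and of the 4 transporters differed little. The normalized read count of Mt1 was 572, 643 and 655 in the libraries labelled male and 91.8, 91.6 and 111 in those labelled female. That of Mt2 was 474, 597 and 595 against 64.5, 67.3 and 77.6. For both genes every male library lay far above every female library, and male 4 was the lowest of its group. Mt1 fell from 624 ± 44.6 to 98.2 ± 11.3 (SD, n = 3), to 15.8% of its male level, or -2.66 on the log2 scale (limma, adjusted p 1.22e-07, SE 0.09). Mt2 fell from 556 ± 70.5 to 69.8 ± 6.92 (SD, n = 3), to 12.6% of its male level, or -2.97 on the log2 scale (limma, adjusted p 1.52e-07, SE 0.11). Of the 12568 genes tested, 69.3% were called, 34.6% higher and 34.6% lower, so a call alone says little about a gene here. A log2 fold change at or below that of Mt1 was found in 246 genes (1.96%). Neither gene shares a 50-base stretch of annotated transcript with another gene. Mt2 overlaps the antisense gene Gm45774, and whether the counting used strand is not given in the sources used here.

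**Figure D1:**
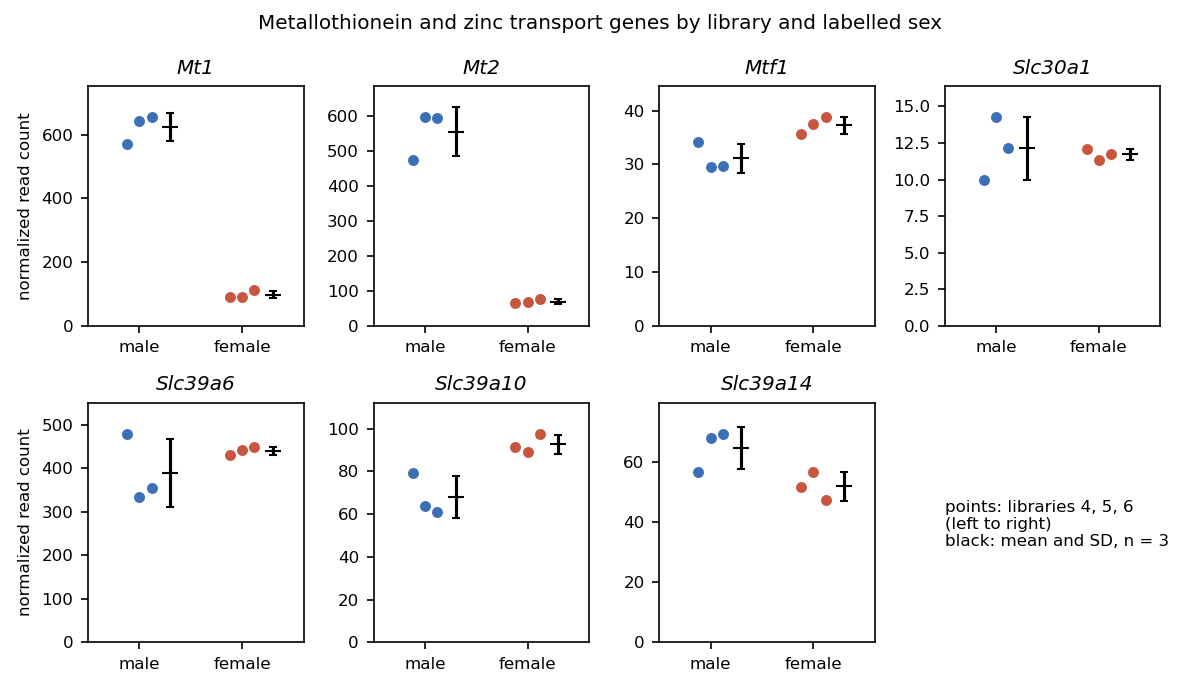
Normalized read count (vertical axes, linear from 0) of the 7 genes in the 3 libraries labelled male (blue) and the 3 labelled female (red), as points in the order 4, 5, 6, with the mean and SD in black. Mt1 and Mt2 separate widely by label, whereas Slc30a1, Slc39a6 and Slc39a14 overlap.

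Together the pair made up 0.0907%, 0.114% and 0.114% of the summed values of the libraries labelled male, and 0.0149%, 0.0150% and 0.0178% of those labelled female. The log2 difference of the share was -2.74 (exact permutation test, two-sided, p = 0.1, n = 3 per group), and 0.1 is the smallest p that 3 against 3 libraries can give. The 2 genes did not fall to the same extent. The ratio of the Mt1 value to the Mt2 value was 1.21, 1.08 and 1.10 in the libraries labelled male and 1.42, 1.36 and 1.43 in those labelled female, with no overlap between the groups. The log2 ratio differed by 0.32 (exact permutation test, two-sided, p = 0.1, n = 3 per group). Male 4 stood nearest to the female libraries in both the share and the ratio.

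**Figure D2:**
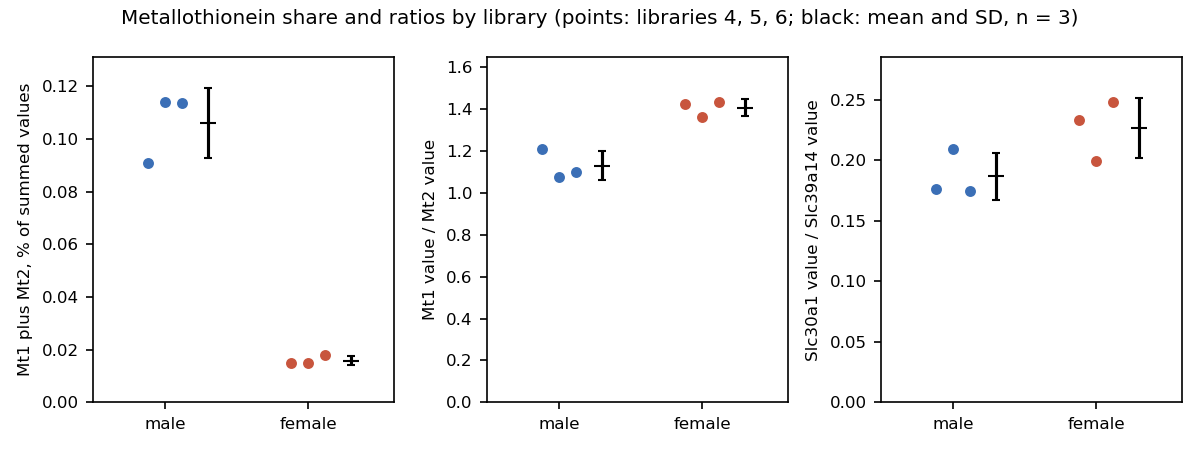
Share of Mt1 plus Mt2 in the summed values (left, percent), ratio of Mt1 to Mt2 (middle) and ratio of Slc30a1 to Slc39a14 (right) in each library, with mean and SD of 3 libraries. The share is 0.0907% to 0.114% in male and 0.0149% to 0.0178% in female libraries, and the right panel shows groups that overlap.

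Mt1 and Mt2 are neighbours on chromosome 8, beside Mt3 and Mt4. Mt3, a metallothionein known mainly from brain, was barely detected, at 1.08, 1.83 and 1.70 in the libraries labelled male and 0.166, 0 and 0.285 in those labelled female. The count of 0 in female 5 allows a value of up to 0.133. Mt3 was called lower (log2 fold change -1.13, limma, adjusted p 0.000315, SE 0.16), on a scale that compresses changes at such low levels. Its means, 1.53 and 0.150, differed 10.2-fold, and its log2 fold change was -2.88 with a pseudocount of 0.1 and -3.35 in edgeR, where Mt2 had -3.004 and Mt1 -2.68. The order of the 3 genes by size of change therefore depends on the scale. Mt4 was not among the listed genes. The genes on either side did not share one direction. Bbs2, a subunit of the ciliary BBSome complex, stood at 11.6 ± 0.845 against 6.16 ± 1.21 (SD, n = 3, male against female) and was lower (-0.83), as was Herpud1, a gene of the endoplasmic reticulum stress response (-0.85). Nup93, a nuclear pore subunit that lies next to Mt1, was higher (log2 fold change 0.39, limma, adjusted p 0.00117, SE 0.07), and Ogfod1, a prolyl hydroxylase of the ribosome, was also higher (0.32). Nudt21, a factor of mRNA 3' end processing, was not called (-0.16, limma adjusted p 0.103).

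**Figure D3:**
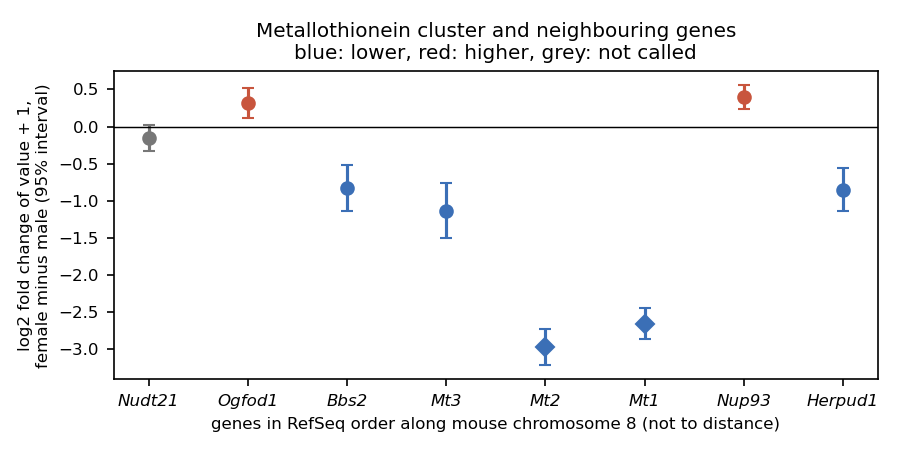
Log2 fold change (female minus male, of value + 1, with 95% interval from limma) of the metallothionein genes and their nearest listed protein-coding neighbours, in RefSeq gene order on chromosome 8 and not to distance. Mt2 lies at -2.97 and Mt1 at -2.66, and the genes outside the cluster range from -0.85 for Herpud1 to 0.39 for Nup93. Mt3, at -1.13 on this scale, reaches -3.35 in edgeR.

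Mtf1, the zinc-sensing factor itself, did not follow the metallothioneins. Its normalized read count was 34.2, 29.6 and 29.6 in the libraries labelled male and 35.6, 37.5 and 38.8 in those labelled female. The groups did not overlap, but male 4 lay close to female 4. The mean rose from 31.1 ± 2.63 to 37.3 ± 1.58 (SD, n = 3), or 0.26 on the log2 scale (limma, adjusted p 0.0224, SE 0.08). With male 5, male 6, female 5 or female 6 left out the call was lost, at log2 fold changes of 0.22, 0.22, 0.25 and 0.23, and with the replicate number as a block the limma adjusted p was 0.0535. Mtf1 overlaps 1110065P20Rik on the opposite strand, which read 4.51 to 7.87 over the 6 libraries.

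Slc30a1, which encodes ZnT1, the zinc exporter of the plasma membrane and a classical target of MTF1, was read at a low level and was not called. It read 9.99, 14.3 and 12.1 in the libraries labelled male and 12.1, 11.4 and 11.7 in those labelled female. The female values lay inside the male range. The log2 fold change was -0.03 with a 95% interval from -0.32 to 0.26 (SE 0.13, limma adjusted p 0.827), an interval that does not reach the fall of Mt1 or Mt2. The gene was covered by 241 to 374 reads per library, and its annotated exons overlap 1700034H15Rik on the opposite strand.

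Slc39a10 and Slc39a6 encode ZIP10 and ZIP6, related zinc importers that can pair with each other in the plasma membrane. Slc39a10 read 79.2, 63.7 and 61.2 in the libraries labelled male and 91.3, 89.1 and 97.5 in those labelled female, without overlap. It rose from 68.0 ± 9.75 to 92.6 ± 4.38 (SD, n = 3), or 0.45 on the log2 scale (limma, adjusted p 0.00374, SE 0.10), and it is a gene that MTF1 is known to repress when zinc is high. Slc39a6 read 479, 333 and 354 against 430, 442 and 449, so that male 4 lay above all female libraries and the other 2 male libraries below them. Its log2 fold change was 0.20 (95% interval -0.09 to 0.48, limma adjusted p 0.188). The value depended on single male libraries. Without male 4 Slc39a6 was called higher at 0.36 (limma adjusted p 6.16e-05), and without male 5 the log2 fold change was 0.095 (limma adjusted p 0.514). With all libraries kept, quantile normalization also gave a call (0.26, limma adjusted p 0.0445).

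Slc39a14 encodes ZIP14, an importer of zinc, manganese and iron not bound to transferrin that is induced by IL-6 in liver. It read 56.6, 68.1 and 69.4 in the libraries labelled male and 51.8, 56.8 and 47.3 in those labelled female. Male 4 lay just below female 5, so the groups overlapped. The mean fell from 64.7 ± 7.04 to 52.0 ± 4.80 (SD, n = 3), or -0.31 on the log2 scale (limma, adjusted p 0.0232, SE 0.10). The call was lost without male 5 (-0.27), male 6 (-0.26), female 4 (-0.31) or female 6 (-0.24), and under quantile normalization (-0.26, limma adjusted p 0.0569). The ratio of Slc30a1 to Slc39a14, exporter to importer, was 0.177, 0.209 and 0.175 against 0.233, 0.200 and 0.248, and the groups overlapped (log2 difference 0.28, exact permutation test, two-sided, p = 0.2, n = 3 per group).

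Of the 7 genes, 3 were called lower, beside 34.6% of all genes, and 2 higher, beside 34.6%, and 4 did not overlap between the groups, beside 74.1% of all genes. These counts lie near the background and are not a result about the genes. edgeR's quasi-likelihood test on the recovered reads also called 5 of the 7, beside 68.0% of 13199 genes. In the authors' deposited table only Mt1 and Mt2 of the 7 had a false discovery rate under 0.05, beside 25.8% of its genes. The authors' deposited table gives fold changes of -6.35 for Mt1 and -7.96 for Mt2 and false discovery rates from 0.316 to 0.931 for the others.

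Per kilobase of the longest coding transcript in GENCODE M21, the levels in the libraries labelled male ran from Mt2 (1087 ± 138, SD, n = 3) through Mt1 (575 ± 41.1) and Slc39a6 (100.1 ± 20.3) to Slc39a14 (13.1 ± 1.43), Slc39a10 (12.4 ± 1.77), Mtf1 (4.08 ± 0.345) and Slc30a1 (2.31 ± 0.407). Slc39a14 and Slc39a10 did not differ beyond their spread. In the libraries labelled female, Mt2 (137 ± 13.5) and Slc39a6 (113 ± 2.47) stood next to each other, followed by Mt1 (90.6 ± 10.4), Slc39a10 (16.8 ± 0.797), Slc39a14 (10.5 ± 0.974), Mtf1 (4.89 ± 0.207) and Slc30a1 (2.24 ± 0.0683). These levels depend on the transcript models. With the shortest models, of 549 bases for Mt1 and 388 for Mt2, the level per kilobase was 1136 for Mt1 and 1432 for Mt2 in the libraries labelled male, and 179 and 180 in those labelled female. The metallothioneins thus stood far above the transporters in the libraries labelled male, and near Slc39a6 in those labelled female.

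Of the 14 other SLC30 and SLC39 genes listed, all 14 were tested, 4 were called higher, 5 lower and 5 not called, shares near the 34.6% of all genes called in each direction. Their median log2 fold change was -0.07, beside 0.01 for all tested genes. Of those called, only Slc39a1 had an authors' deposited false discovery rate under 0.05 (0.0263), beside 25.8% of all genes. The others ranged up to 0.660 for Slc39a13. Of 7 tested exporters, 3 were higher and 2 lower, beside the same 34.6%. Slc30a4, which loads zinc into vesicles of the endosome and lysosome, was higher, at 69.2 ± 4.95 against 91.6 ± 2.82 (SD, n = 3, male against female, log2 fold change 0.40, limma adjusted p 0.000943). Slc30a7, a transporter of the Golgi, was lower, at 82.6 ± 8.03 against 58.5 ± 1.11 (SD, n = 3, log2 fold change -0.49). Slc30a5, which pairs with Slc30a6 in the early secretory pathway, was higher (0.22), and Slc30a6 itself had a log2 fold change of 0.19 without a call. The mitochondrial transporter Slc30a9 was higher (0.36), and Slc30a10, known as a manganese exporter, was lower at 1.58 ± 0.257 against 0.276 ± 0.247 (SD, n = 3, -1.03). Its means differed 5.72-fold, and the log2 fold change was -2.49 with a pseudocount of 0.1 and -2.55 in edgeR. The call of Slc30a5 was lost without male 5, female 4 or female 5 and under the replicate block, and that of Slc30a9 when any library but male 4 was left out.

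Of the 11 tested importers, Slc39a14 and Slc39a10 included, 4 were lower and 2 higher, beside 34.6% of all genes in each direction. Slc39a1, which encodes a zinc importer of the plasma membrane, read 254, 219 and 222 in the libraries labelled male and 139, 137 and 138 in those labelled female, with no overlap. Its log2 fold change was -0.74 (limma, adjusted p 2.53e-05, SE 0.07), and it shares 21.8% of its 50-base stretches with a pseudogene, so its value is uncertain to that extent. Slc39a8, which carries zinc and manganese, was lower at 27.4 ± 3.70 against 15.2 ± 1.61 (SD, n = 3, -0.81), and so was Slc39a4, the zinc importer of the intestine (-0.66). Slc39a13 was higher (0.16), a call that was lost under RLE factors, the replicate block, edgeR and DESeq2 and without any library but male 4. Slc39a3 (-0.21), Slc39a7 (-0.07), Slc39a9 (-0.07) and Slc39a11 (0.13) were not called. Slc39a7 shares 74.5% of its 50-base stretches with Gm20427 and is uncertain. Summed, the exporters read 274 to 325 in the libraries labelled male and 318 to 323 in those labelled female, and the importers 1062 to 1251 and 1075 to 1100, so neither summed level separated the groups.

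**Figure D4:**
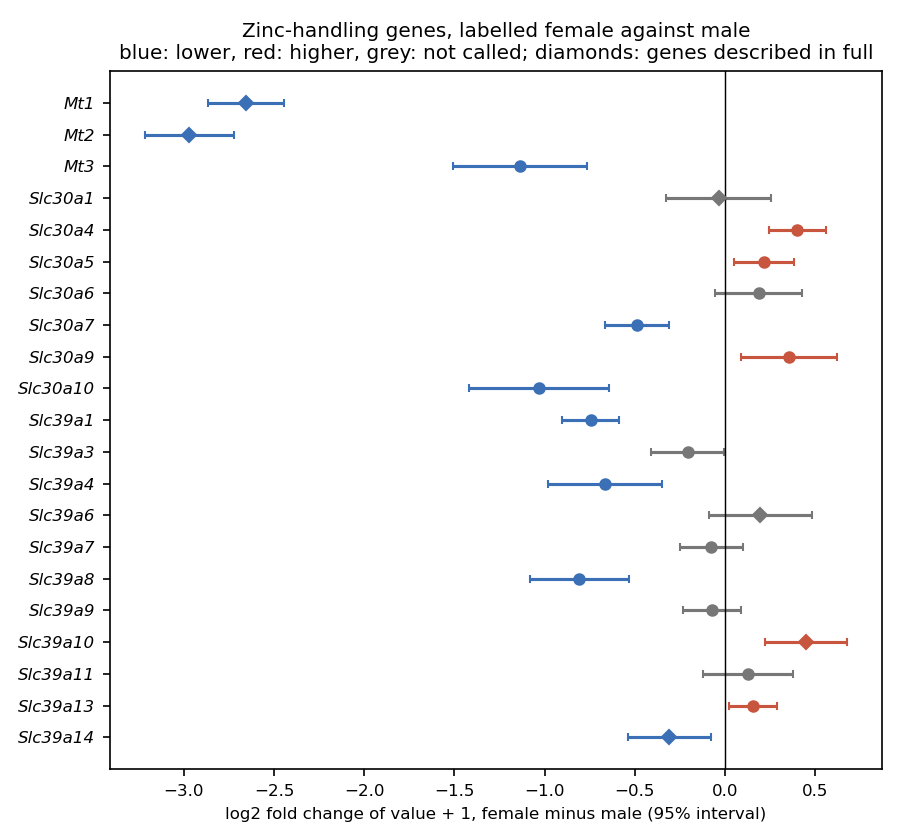
Log2 fold change (female minus male, of value + 1) with its 95% interval from limma for every listed metallothionein, SLC30 and SLC39 gene. Mt1 and Mt2 lie at -2.66 and -2.97, while the transporters lie between -1.03 (Slc30a10) and 0.45 (Slc39a10). This scale compresses weakly read genes: Slc30a10 is at -2.55 and Mt3 at -3.35 in edgeR.

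Genes known as targets of MTF1 did not share a direction. The list includes Slc39a10, which MTF1 is known to repress, so its counts and median do not measure MTF1 activity. Of 10 in the list, 5 were lower, 4 higher and Slc30a1 was not called, beside 34.6% of all genes called in each direction. The median log2 fold change was -0.44 beside 0.01 for all tested genes, and 0.21 over the 8 targets other than Mt1 and Mt2, so its sign rests on that pair. Next to Mt1 and Mt2, the lower genes were Ndrg1, a stress-response gene that hypoxia also induces, Pgf, which encodes placental growth factor, and Selenow, which encodes a small selenoprotein. Ndrg1 read 2351, 1641 and 1768 in the libraries labelled male and 191, 205 and 249 in those labelled female (log2 fold change -3.14, limma, adjusted p 5.06e-07, SE 0.15). Pgf fell from 173 ± 19.7 to 64.9 ± 3.49 (SD, n = 3, -1.40) and Selenow from 225 ± 5.96 to 125 ± 8.48 (SD, n = 3, -0.85). The higher genes besides Slc39a10 were Slc40a1, the iron exporter ferroportin, Gclc, the rate-limiting enzyme of glutathione synthesis, and Csrp1. Slc40a1 rose from 4.22 ± 1.70 to 28.2 ± 0.740 (SD, n = 3, log2 fold change 2.53, limma adjusted p 8.81e-06).

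Of 8 factors known to bind metallothionein promoters, 6 were lower, 1 (Mtf1) higher and Sp1 was not called (limma adjusted p 0.991), beside 34.6% of all genes in each direction. The largest difference was that of Hif1a, the oxygen-regulated factor, at 1141, 1826 and 1729 in the libraries labelled male and 298, 341 and 379 in those labelled female (log2 fold change -2.18, limma, adjusted p 1.03e-05, SE 0.17). Stat3 (-0.92), the glucocorticoid receptor gene Nr3c1 (-0.88) and Nfe2l2, which encodes the oxidant-responsive factor NRF2 (-0.64), were lower by less. Usf1 (-0.28) and Usf2 (-0.29), which bind E-boxes, were the other factors called lower, and the call of Usf1 was lost without male 5 or female 4.

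Of 8 genes known to be induced by glucocorticoids, 7 were lower and 1 higher, beside 34.6% of all genes in each direction. Their median log2 fold change was -1.40, beside 0.01 for all tested genes. Zbtb16 fell from 49.8 ± 4.57 to 11.5 ± 1.91 (SD, n = 3, log2 fold change -2.03, limma adjusted p 2.65e-06), and Fkbp5, a chaperone that limits the receptor, from 337 ± 22.1 to 124 ± 9.43 (SD, n = 3, -1.44). Errfi1 (-1.79), the clock gene Per1 (-1.73) and Klf9 (-1.37) were also lower. In Per1 and Klf9 male 4 stood at 121 and 113, below the other male libraries at 198 to 203 and above every female library. Sgk1, a kinase that raises sodium uptake, went the other way, from 54.2 ± 16.3 to 256 ± 20.8 (SD, n = 3, 2.26). Dusp1 was lower by the least (-0.38) and lost its call without male 5, male 6 or female 6.

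Of 12 genes of the IL-6 and STAT3 pathway, 10 were lower, 1 higher and Hp was not called, beside 34.6% of all genes in each direction. Their median log2 fold change was -0.94. Lcn2, an acute-phase gene, read 1386, 1919 and 1999 in the libraries labelled male and 303, 275 and 349 in those labelled female (log2 fold change -2.50). The acute-phase gene Saa3 (-2.44), the cytokine Lif (-2.15), the STAT3 target Socs3 (-1.64) and Bcl3 (-1.36) were lower too. Il6 itself was the gene called higher, from 4.27 ± 0.914 to 31.1 ± 0.382 (SD, n = 3, 2.62, limma adjusted p 8.71e-07). Stat3 is counted in this list and among the promoter-binding factors.

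Copper is another metal that metallothioneins bind. Of 10 copper-handling genes, 4 were lower, 2 higher and 4 not called, near the 69.3% of all genes called in either direction, and the median log2 fold change was -0.11. The copper pump Atp7b had a log2 fold change of -1.01, on a male 4 value of 17.8 against 7.05 and 6.82 in the other male libraries. Without male 4 it was -0.59, smaller in size than Atp7a at -0.78 in that fit, and its call was lost without female 4 or female 5. The copper pump Atp7a fell from 179 ± 23.7 to 96.2 ± 6.90 (SD, n = 3, -0.89). The 2 genes called higher were close in size, the copper chaperone of cytochrome oxidase Cox17 (0.54, SE 0.10) and Sco1 (0.51, SE 0.16). Sco1 lost its call without female 4 or female 5.

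**Figure D5:**
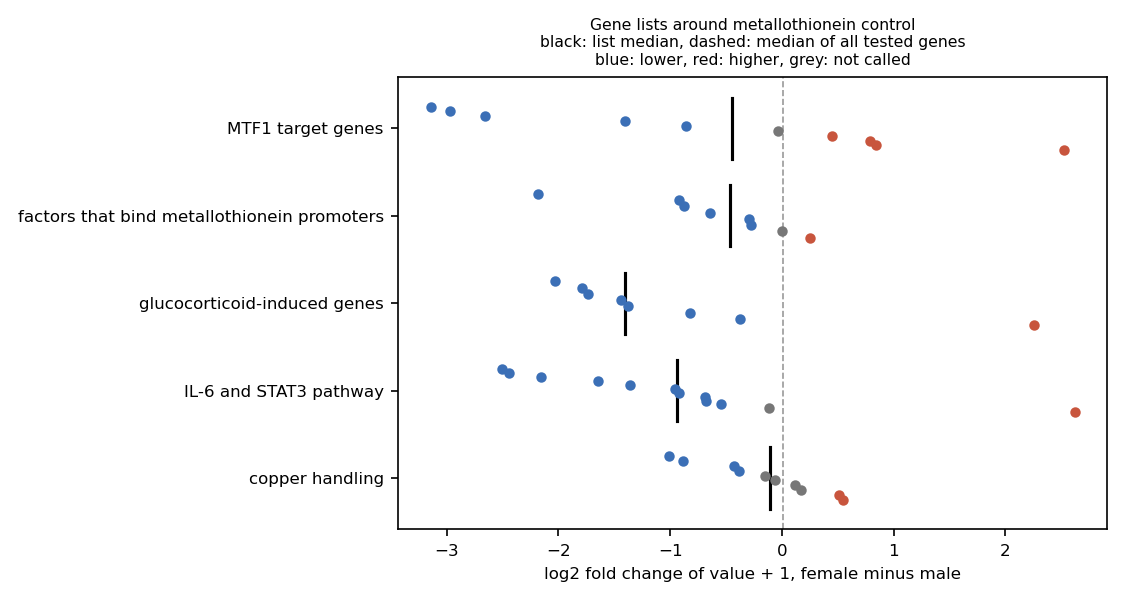
Log2 fold change (female minus male, of value + 1) of each gene in 5 lists, coloured by limma call, with the list median as a black bar and the median of all tested genes (0.01) as a dashed line. The medians are -0.44, -0.47, -1.40, -0.94 and -0.11 from top to bottom, and single genes such as Slc40a1 (2.53), Sgk1 (2.26) and Il6 (2.62) lie opposite to their list's median.

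Over the 6 libraries, the 3 genes with a mean of at least 10 whose log2 values followed Mt1 most closely were Plcb1, Phyh and Emilin2, with a Pearson correlation of 0.9999, 0.9998 and 0.9998. For Mt2 they were H2-T23, Ndufa4l2 and Hdc, each at 0.9998 or 0.9997, and Mt1 and Mt2 had a correlation of 0.9994 with each other. These values describe 6 libraries that fall into 2 groups, and 1957 of 8975 genes had a correlation above 0.95 with Mt1. Slc30a1 was followed most closely by Gpatch1 (0.99), Rpl29 (0.98) and Pyhin1 (0.96), and Slc39a14 by Pgls, Dusp1 and Urod (each 0.99).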

How the data were processed

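Poly(A) RNA sequencing of 6 libraries gave 1 deposited table of 13595 genes. Its deposited signal columns, 1 per library, hold normalized reads. In each, 100% of values were whole multiples (tolerance 0.01) of the smallest value above 0, so whole reads divided by 1 factor per library were recovered; edgeR on them called 8975 of 13199 genes. The deposited score is the authors' signed linear fold change, female against male, and per the file headers the p-value columns hold their p and its adjusted form. The submitters' processing notes name Bowtie2, RSEM, edgeR and mm39 without roles. The filter behind the listed genes is not given in the sources used here.

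The design assigned limma (3.58.1, R 4.3.3, eBayes with trend) to log2(value + 1), keeping the 12568 genes that reached 1 in 3 or more libraries. P-values were two-sided and adjusted by Benjamini-Hochberg over all of them, with a threshold of 0.05. Fold changes on this scale understate those of weakly expressed genes. Ratios were tested by exact permutation over libraries. The labels give replicate numbers 4, 5 and 6 in both groups. After removing group means, libraries with the same number correlated at -0.09, -0.03 and -0.17, so the numbers were not treated as pairs. The members and gene lists were chosen with earlier results of these data known. Named genes were the 7 members, other listed zinc transporters, list genes called with a log2 difference of 1 or more in size or at a list's extremes, sex-linked genes, and the 3 genes most correlated with each of Mt1, Mt2, Slc30a1 and Slc39a14. Neighbours of the metallothionein cluster were added by position, and Selenow, Gclc, Csrp1, Stat3, Nr3c1, Nfe2l2, Usf1, Usf2, Sp1, Dusp1, Hp, Atp7a, Sco1 and the marker genes fall outside that rule and were named after their values were seen. The protein comparison in the design was not run. Selenow was matched through its older symbol Sepw1. Transcript lengths and overlaps came from GENCODE M21 and promoter windows from RefSeq, both on GRCm38, so no coordinates of the measured reads are given. The fit was tested on simulated counts. Alternatives were RLE factors, quantile normalization, other filters, a pseudocount of 0.1, the replicate block, edgeR 4.0.16 and DESeq2 1.42.0 on recovered reads, and each library left out.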

Additional observations from a re-analysis of the deposited data

How the results depend on the processing

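Of 98 values recomputed for the 7 genes, 84 kept direction and call, 10 lost the call (all of Mtf1 and Slc39a14), 2 gained it (Slc39a6) and 2 changed sign. The 2 that changed sign were Slc30a1 under quantile normalization (0.028) and without male replicate 5 (0.081), neither called, and the cause was not tested; with 1 library left out it ran from -0.16 (without male replicate 4) to 0.081. Mt1 ran from -2.75 to -2.60 and Mt2 from -3.08 to -2.90 over all alternatives, always called. Slc39a10 kept its call throughout, from 0.38 to 0.56. The count of members called was 4 to 5 over the 8 alternatives with all libraries, and 3 to 6 when 1 library was left out, with 3 without male replicate 5, male replicate 6 or female replicate 6. Fewer libraries were used there. The count of all genes called ran from 8236 to 9085 over those 8 alternatives and from 7373 to 9113 with 1 library left out. With the replicate block 8314 genes and 4 of the 7 members were called, Mtf1 being lost, and Slc30a5 and Slc39a13 also lost their calls. Libraries sharing a replicate number did not correlate positively once group means were removed. Whether they were prepared together is not stated. Of 51 genes called in the zinc, MTF1, promoter factor, copper, glucocorticoid and IL-6 lists, 42 kept call and direction in every fit that gave a value. Ratios and the share kept their direction in every setting, but 3 libraries per group cannot give an exact p below 0.1. At this depth Mt3 and Slc30a10 rest on few reads. Their log2 fold changes ran from -3.38 to -1.04 and from -2.55 to -0.86 over the 10 alternatives in which each was tested.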
